A study of Homo sapiens with 16 samples.

Results

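The enzymes described here make and interconvert asparagine, aspartate, glutamate, glutamine, alanine and proline. The list named 9 genes, and its members were the rows of the deposited value table that carried 1 of these symbols alone, with the highest-mean row kept for a symbol. Rows were found for 7 of the 9 genes, out of 22464 genes tested, and each of the 7 had a single row. They were ASNS, GOT1, GOT2, GLUL, PYCR1, ALDH18A1 and PRODH. GPT2 and GLS2 had no row with their symbol in the platform annotation used and were not analysed here.

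The series asked how inhibition of MEK, the kinase that activates ERK, alters what HepG2 cells, a human hepatoma line, do when histidine, an essential amino acid, is withheld. Cells received PD98059, a MEK inhibitor, or its solvent DMSO for 1 h and then spent 8 h without histidine or in complete medium, with inhibitor or solvent still present. The 4 groups were PD-His (PD98059, no histidine), PD-DMEM (PD98059, complete medium), DMSO-His (DMSO, no histidine) and DMSO-DMEM (DMSO, complete medium), with 4 arrays each from independent incubations, 16 in all. PD98059 was used at 2.5 uM per the protocol text, although some sample labels give the unit without its micro prefix. All groups came from the same transformed line, and per the labels the line was grown with 2 mM glutamine, non-essential amino acids and 10% serum. The labels used here do not say whether the depleted medium held the same supplements. Values are log2 expression, so a difference of 1 is a 2-fold change.

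Array medians lay between 6.20 and 6.28. Replicate 3 of PD-His stood apart from its group, with a root mean square deviation of 0.111 over all genes against 0.0496 to 0.0760 on the other arrays. All 7 measured hepatocyte markers lay above the median of the table in every group, from 8.24 to 13.7, with ALB, the albumin gene, between 12.8 and 13.0. That median is taken over all rows, and 15548 of the 22464 genes tested had a mean at or above it. Lying above it was thus common. Of 3 blood cell markers only LYZ was high, at 13.0 to 13.3, and PTPRC, the pan-leukocyte gene, lay at 3.91 to 3.93. Endothelial markers lay between 5.13 and 6.83 and fibroblast markers between 3.88 and 8.45. In every group 2 of 3 endothelial and 3 of 4 fibroblast markers also lay above the median of the table. Of the 4 fibroblast markers, 1 was called in each comparison and the other 3 (COL1A1, COL1A2 and DCN) in none. This was PDGFRB, which rose on depletion by 0.29 with PD98059 and by 0.49 with DMSO, fell by 0.40 with PD98059 without histidine and by 0.20 in complete medium, and had an interaction of -0.20 (adjusted p = 0.00716). Of the 7 hepatocyte markers, 1 rose and 3 fell on depletion with PD98059, and 4 fell with DMSO. Among all genes 12% rose and 15.3% fell with PD98059, and 14.8% rose and 18.4% fell with DMSO. APOA1 was among the markers that fell, by 0.33 with PD98059 and by 0.26 with DMSO. PD98059 raised 3 of the 7 without histidine and 2 in complete medium, against 13.5% and 7.59% of all genes. FGB was at 0.37 and 0.41 and APOA1 at 0.26 and 0.33. None of the 7 was called for the interaction, against 5.74% of all genes. The part of these shifts in the results below was not tested.

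The MEK target DUSP6 averaged 8.49 ± 0.079 in PD-His, 6.87 ± 0.12 in PD-DMEM, 9.77 ± 0.048 in DMSO-His and 8.56 ± 0.068 in DMSO-DMEM (SD, n = 4 each). It was lower with PD98059 in each medium, but depletion raised it by 1.63 with PD98059 and by 1.20 with DMSO, an interaction of 0.42 (adjusted p = 0.00286). The PD-His mean lay near that of DMSO-DMEM. ATF4, the central factor of the amino acid response, averaged 10.9 ± 0.038 in PD-His, 10.8 ± 0.035 in PD-DMEM, 11.1 ± 0.020 in DMSO-His and 10.7 ± 0.028 in DMSO-DMEM (SD, n = 4 each). It rose on depletion by 0.16 with PD98059 and by 0.40 with DMSO, an interaction of -0.23 (adjusted p = 0.00101).

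Loss of an essential amino acid leaves its transfer RNA uncharged, which activates the kinase GCN2, lowers general translation and raises translation of ATF4. ATF4 binds C/EBP-ATF response elements, known as CARE sites, in genes for amino acid synthesis and uptake. ASNS is the textbook target of this pathway. Glutamate stands at the centre of the enzymes described here: it receives or donates the amino group in the aminotransferases, is amidated to glutamine by GLUL, and is the carbon source of proline.

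The promoters of ASNS and GOT1 are shown because these 2 members rose in both depletion comparisons. RefSeq promoter windows (GRCh38.p14, minus strand, printed 5′ to 3′) span 250 bases before to 50 bases after a gene's start. The motif searched for was TGATGNAAN, a CARE core, on both strands, and GTTACA, the second element known from the ASNS promoter, also on both strands. Capitals mark the matches. The ASNS window lies at chr7:97872359-97872658 and the GOT1 window at chr10:99430575-99430874.
ASNS: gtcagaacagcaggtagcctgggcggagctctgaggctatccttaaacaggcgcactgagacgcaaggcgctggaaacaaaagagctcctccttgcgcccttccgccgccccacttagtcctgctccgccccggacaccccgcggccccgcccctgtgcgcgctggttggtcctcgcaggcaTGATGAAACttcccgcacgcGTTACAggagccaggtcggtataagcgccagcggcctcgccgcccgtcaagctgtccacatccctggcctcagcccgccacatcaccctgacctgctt
GOT1: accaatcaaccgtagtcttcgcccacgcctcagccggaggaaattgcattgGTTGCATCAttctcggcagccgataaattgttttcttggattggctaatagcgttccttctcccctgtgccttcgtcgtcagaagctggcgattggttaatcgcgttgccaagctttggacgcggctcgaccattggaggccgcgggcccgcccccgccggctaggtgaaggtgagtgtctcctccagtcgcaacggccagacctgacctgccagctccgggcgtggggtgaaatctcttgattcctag
In ASNS the letters TGATGAAAC stood at -68 to -60 and GTTACA at -48 to -43 from the start, with no overlap between the matches. In GOT1 the match read TGATGCAAC on the opposite strand, at -199 to -191, and GTTACA was not in this window. A CARE core was present in 3.61% of 35116 promoter windows, GTTACA in 6.66% and both in 0.498%. Windows were available for 5 of the 7 members, and those of GOT2, GLUL and ALDH18A1 held neither motif, nor did the further window listed for ASNS. The matches describe letters only.

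The first comparison was histidine depletion with DMSO. Of the 7 members 3 rose, 3 fell and 1 was not called, at an adjusted p under 0.05 from limma with Benjamini-Hochberg adjustment over all genes. Among all genes 14.8% rose and 18.4% fell, 33.3% in all. The median change over the members was 0.040, against 0.026 over all genes. The members' arrays did not overlap between DMSO-His and DMSO-DMEM for 4 members that were higher and 3 that were lower, against 20.8% and 20.5% of all genes, 41.4% in all.

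ASNS makes asparagine from aspartate, taking the amide group from glutamine. It read 10.12, 10.08, 10.08 and 10.10 in DMSO-His, against 8.14, 8.05, 8.12 and 8.14 in DMSO-DMEM. Every depleted array lay above every array of complete medium. The rise was 1.98 ± 0.048 (SE, adjusted p = 3.92e-14), or 3.95-fold, which ranked 6 among the 22464 genes by log2 change. In bulk RNA a change in the share of expressing cells and a change in RNA per cell cannot be told apart.

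GOT1 and GOT2 encode the cytosolic and mitochondrial aspartate aminotransferases, which interconvert aspartate and glutamate and carry reducing equivalents in the malate-aspartate shuttle. GOT1 read 12.24, 12.21, 12.19 and 12.21 in DMSO-His, against 11.49, 11.42, 11.46 and 11.47 in DMSO-DMEM. The groups did not overlap, and GOT1 rose by 0.75 ± 0.026 (SE, adjusted p = 1.58e-12), or 1.68-fold. GOT2 read 12.00, 12.04, 12.01 and 12.05 in DMSO-His, against 12.10, 12.09, 12.10 and 12.10 in DMSO-DMEM. It fell by 0.07 ± 0.025 (SE, adjusted p = 0.0297), or 0.950-fold. That call was lost without replicate 1, 3 or 4 of DMSO-DMEM or replicate 1 or 3 of DMSO-His (adjusted p from 0.0615 to 0.0827), and with another quantile normalization GOT2 was at -0.03 (adjusted p = 0.306). It was also lost with arrays shifted to the same median (adjusted p = 0.0821) and with every row tested (adjusted p = 0.0842). The log2 difference GOT1 minus GOT2 on an array was higher by 0.82 in DMSO-His than in DMSO-DMEM, with no overlap between the groups. A two-sided exact permutation test gave p = 0.0286, the smallest that 4 arrays against 4 allow, and p = 0.0571 adjusted over 4 pair tests, which does not pass the threshold. With so high a floor, the adjusted value depends on whether the other pair of genes reached the floor too. It therefore cannot decide for GOT1 and GOT2 alone.

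GLUL, glutamine synthetase, joins ammonia to glutamate. It read 9.11, 9.13, 9.13 and 9.15 in DMSO-His, against 9.62, 9.58, 9.60 and 9.60 in DMSO-DMEM. Its depleted arrays were all lower. GLUL fell by 0.47 ± 0.023 (SE, adjusted p = 1.38e-10), to 0.722 of the level in complete medium.

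Proline is made from glutamate in a short pathway. ALDH18A1, a bifunctional enzyme, carries out its first steps, PYCR1 the last step in mitochondria, and PRODH starts the breakdown of proline. ALDH18A1 read 10.44, 10.47, 10.42 and 10.45 in DMSO-His, against 10.79, 10.66, 10.76 and 10.77 in DMSO-DMEM, and fell by 0.30 ± 0.028 (SE, adjusted p = 2.96e-07). PYCR1 read 11.08, 11.10, 11.09 and 11.16 in DMSO-His, against 10.99, 10.97, 11.03 and 11.04 in DMSO-DMEM, and rose by 0.10 ± 0.034 (SE, adjusted p = 0.0313). The first and last enzymes of proline synthesis thus had changes of opposite sign. The PYCR1 call was lost without replicate 1 or 2 of DMSO-DMEM or replicate 2 or 4 of DMSO-His (adjusted p from 0.0530 to 0.101), and with another quantile normalization (adjusted p = 0.0593). PRODH read 7.84, 7.85, 7.89 and 7.84 in DMSO-His, against 7.81, 7.83, 7.81 and 7.80 in DMSO-DMEM. Its arrays did not overlap, but the change of 0.04 (95% confidence interval -0.04 to 0.12, adjusted p = 0.413) did not pass, nor did it with only the compared groups fitted (adjusted p = 0.132). The difference PYCR1 minus PRODH was 0.06 higher in DMSO-His than in DMSO-DMEM, which did not pass (exact permutation p = 0.114, adjusted p = 0.143).

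**Figure D1:**
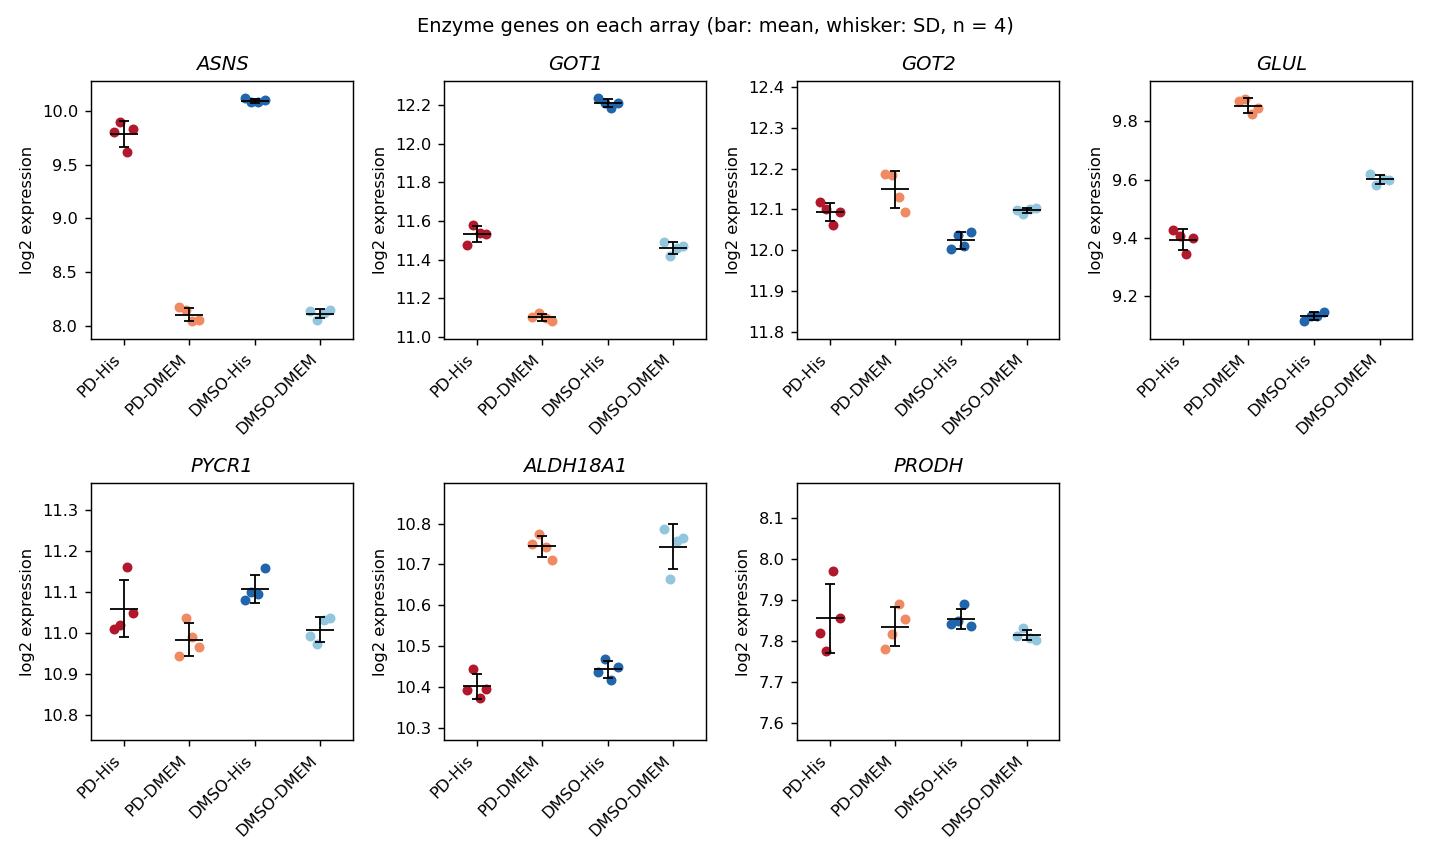
Log2 expression of the 7 enzyme genes on each array, by group, with the mean and SD of 4 arrays; each panel has its own vertical range, which does not start at 0. ASNS and GOT1 were highest in DMSO-His, GLUL separated all 4 groups, and ALDH18A1 separated by medium only.

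With PD98059 present, depletion called 4 of the 7 members: 2 rose and 2 fell, against 12% and 15.3% of all genes, and 27.4% in all. The arrays of these 4 members did not overlap between the groups, against 10.6% of all genes higher and 14.5% lower, 25.1% in all. The median change over the members was 0.021, against 0.0032 over all genes. ASNS read 9.81, 9.89, 9.61 and 9.83 in PD-His, against 8.17, 8.14, 8.05 and 8.06 in PD-DMEM. Replicate 3 was the lowest of the depleted arrays, and all of them lay above complete medium. ASNS rose by 1.68 ± 0.048 (SE, adjusted p = 7.43e-13), or 3.21-fold, and ranked 5 by log2 change.

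GOT1 read 11.48, 11.58, 11.54 and 11.53 in PD-His, against 11.10, 11.12, 11.10 and 11.08 in PD-DMEM, and rose by 0.43 ± 0.026 (SE, adjusted p = 2.64e-09), or 1.35-fold. GLUL read 9.43, 9.41, 9.34 and 9.40 in PD-His, against 9.87, 9.88, 9.82 and 9.84 in PD-DMEM, and fell by 0.46 ± 0.023 (SE, adjusted p = 3.63e-10). ALDH18A1 read 10.39, 10.44, 10.37 and 10.40 in PD-His, against 10.75, 10.77, 10.74 and 10.71 in PD-DMEM, and fell by 0.34 ± 0.028 (SE, adjusted p = 1.1e-07). In each of these genes every depleted array lay on the same side of every array of complete medium.

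GOT2 was at -0.06 (adjusted p = 0.118), PYCR1 at 0.08 (adjusted p = 0.119) and PRODH at 0.02 (adjusted p = 0.783), and their arrays overlapped. Without replicate 4 of PD-DMEM, GOT2 was at -0.07 (adjusted p = 0.0397). GOT1 minus GOT2 was higher by 0.49 in PD-His than in PD-DMEM, without overlap (exact permutation p = 0.0286, again the smallest possible, adjusted p = 0.0571). The adjusted value did not pass, with the same limit as above. PYCR1 minus PRODH was 0.06 higher in PD-His than in PD-DMEM, which did not pass (exact permutation p = 0.143, adjusted p = 0.143).

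**Figure D2:**
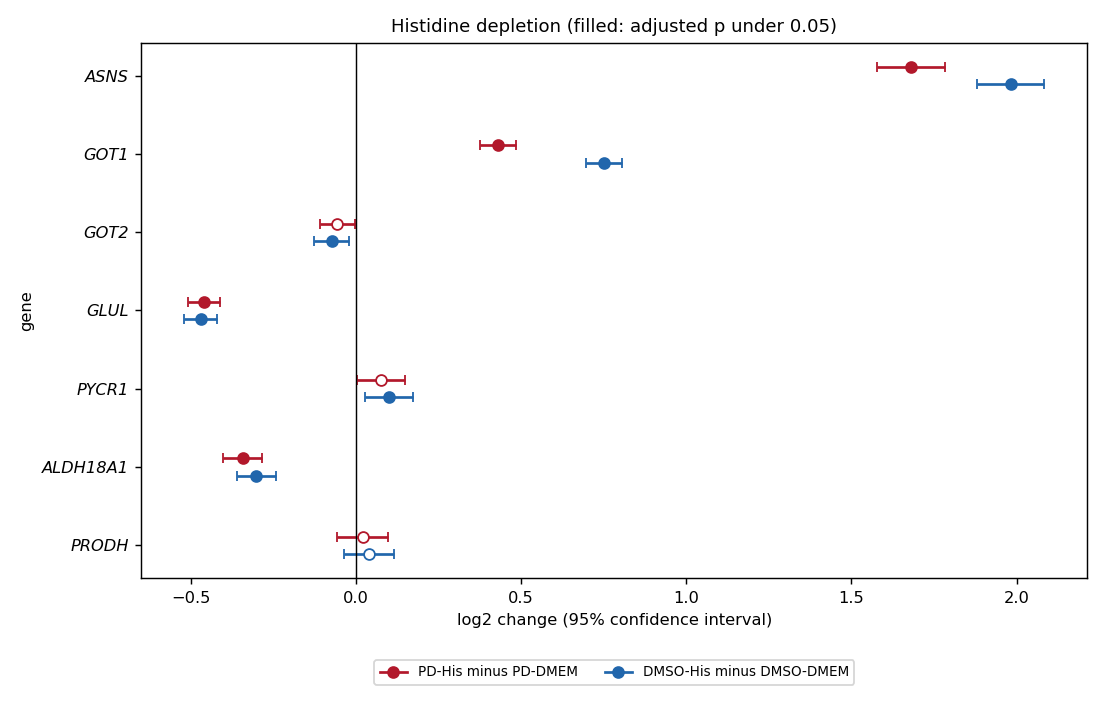
Log2 change of each enzyme gene on histidine depletion, with PD98059 (red) and with DMSO (blue); bars are 95% confidence intervals of the limma fit and filled points passed an adjusted p under 0.05. ASNS changed by 1.68 with PD98059 and 1.98 with DMSO, GOT1 by 0.43 and 0.75, and the intervals of the other genes overlapped between the treatments.

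PD98059 was next compared with DMSO in the same medium. In complete medium 2 of the 7 members were called, GLUL higher and GOT1 lower, against 7.59% of all genes higher and 6.74% lower, 14.3% in all. The arrays of these 2 members did not overlap, against 12.2% of all genes higher and 9.66% lower, 21.8% in all. GLUL rose by 0.25 ± 0.023 (SE, adjusted p = 1.11e-06), with 9.82 to 9.88 in PD-DMEM and 9.58 to 9.62 in DMSO-DMEM. GOT1 fell by 0.36 ± 0.026 (SE, adjusted p = 7.84e-08), with 11.08 to 11.12 in PD-DMEM and 11.42 to 11.49 in DMSO-DMEM. ASNS averaged 8.11 ± 0.064 in PD-DMEM and 8.11 ± 0.043 in DMSO-DMEM (SD, n = 4 each), a difference of -0.0078 with a 95% confidence interval of -0.11 to 0.09 (adjusted p = 0.955). ALDH18A1 differed by 6e-04 (interval -0.06 to 0.06), PYCR1 by -0.02 (-0.10 to 0.05) and PRODH by 0.02 (-0.05 to 0.10). GOT2 was at 0.05 (adjusted p = 0.209), and with another quantile normalization at 0.08 (adjusted p = 0.0233).

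Without histidine 4 of the 7 members were called, 2 higher and 2 lower, against 13.5% of all genes higher and 10.9% lower, 24.4% in all. GOT1 fell by 0.68 ± 0.026 (SE, adjusted p = 2.63e-11) and ranked 19 among all genes by p, with 11.48 to 11.58 in PD-His and 12.19 to 12.24 in DMSO-His. ASNS fell by 0.31 ± 0.048 (SE, adjusted p = 0.000123), with 9.61 to 9.89 in PD-His and 10.08 to 10.12 in DMSO-His. GLUL rose by 0.26 ± 0.023 (SE, adjusted p = 2.91e-07), with 9.34 to 9.43 in PD-His and 9.11 to 9.15 in DMSO-His. None of these ranges overlapped. Arrays of 2 members were higher and of 2 lower without overlap, against 12.5% and 10.9% of all genes, 23.3% in all. GOT2 rose by 0.07 ± 0.025 (SE, adjusted p = 0.0487). That call was lost without any 1 of 13 of the 16 arrays (adjusted p from 0.0507 to 0.128) and with the replicate number as a block (adjusted p = 0.0562). It was also lost with only the compared groups (adjusted p = 0.138), every row tested (adjusted p = 0.141) and arrays shifted to the same median (adjusted p = 0.204). PYCR1 was at -0.05 (adjusted p = 0.374), and without replicate 3 of PD-His at -0.08 (adjusted p = 0.0312). ALDH18A1 was at -0.04 (interval -0.10 to 0.02) and PRODH at 0.0016 (interval -0.07 to 0.08).

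The interaction, the depletion response with PD98059 minus that with DMSO, tests whether the responses differed. Of the 7 members none was called higher and 2 were called lower, against 2.91% and 2.83% of all genes, 5.74% in all. The GOT1 interaction was -0.32 ± 0.036 (SE, adjusted p = 5.5e-05). The ASNS interaction was -0.30 ± 0.068 (SE, adjusted p = 0.0146), and -0.24 without replicate 3 of PD-His (adjusted p = 0.00347). The ATF4 interaction was -0.23, and its part in these differences was not tested. The ASNS call was lost with arrays shifted to the same median (adjusted p = 0.0759) and with every row tested (adjusted p = 0.0514). For GLUL the interaction was 0.0097 with a 95% confidence interval of -0.06 to 0.08, and for ALDH18A1 it was -0.04 with an interval of -0.13 to 0.04.

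**Figure D3:**
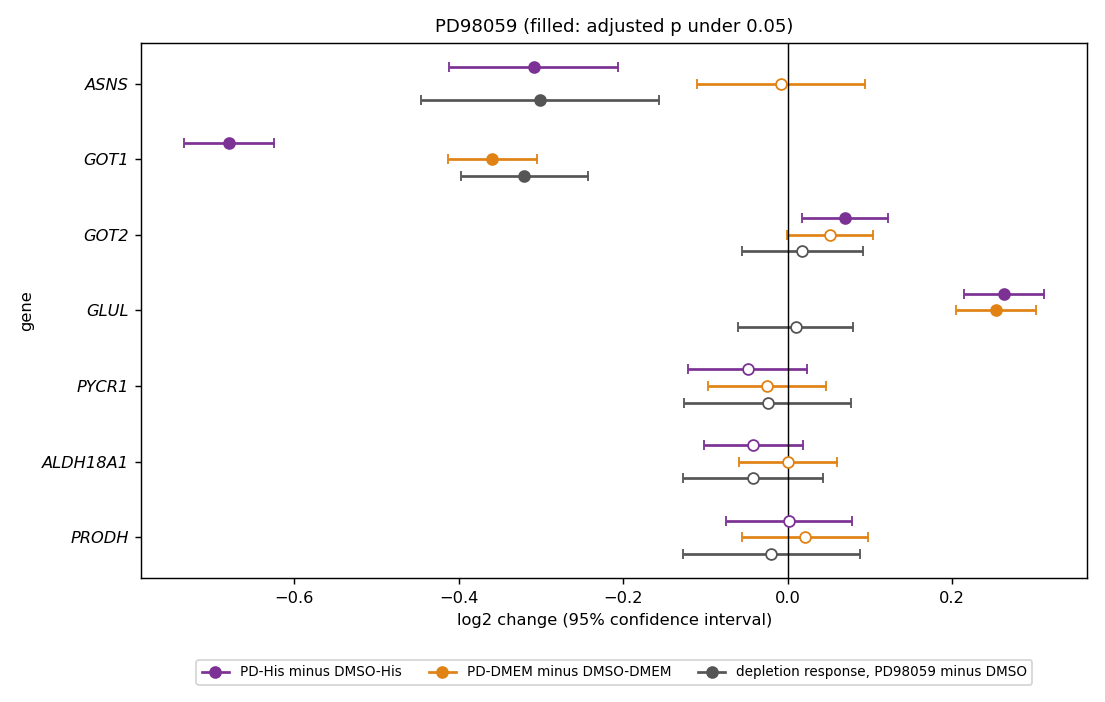
Log2 difference of each enzyme gene between PD98059 and DMSO without histidine (purple) and in complete medium (orange), and the interaction (grey); bars are 95% confidence intervals and filled points passed an adjusted p under 0.05. GOT1 lay at -0.68, -0.36 and -0.32, GLUL at 0.26, 0.25 and 0.0097, and ASNS at -0.31, -0.0078 and -0.30.

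The members thus differed in the order of their group levels. GLUL ran from 9.13 ± 0.013 in DMSO-His through 9.39 ± 0.036 in PD-His and 9.60 ± 0.015 in DMSO-DMEM to 9.85 ± 0.025 in PD-DMEM (SD, n = 4 each), and no neighbours overlapped. GOT1 ran from 11.1 ± 0.018 in PD-DMEM through 11.5 ± 0.031 in DMSO-DMEM and 11.5 ± 0.043 in PD-His to 12.2 ± 0.020 in DMSO-His (SD, n = 4 each). The middle pair overlapped. ASNS had PD-DMEM and DMSO-DMEM overlapping at the low end, then PD-His at 9.79 ± 0.12 and DMSO-His at 10.1 ± 0.018 (SD, n = 4 each). ALDH18A1 overlapped between PD98059 and DMSO in each medium. Group means spanned 1.99 for ASNS, 1.11 for GOT1, 0.723 for GLUL and 0.343 for ALDH18A1, but 0.125 for GOT2, 0.125 for PYCR1 and 0.0419 for PRODH.

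For the 3 members whose group means spanned at least 0.5, the genes with the closest profile were sought among 15547 others above the median of the table, by the root mean square difference of 4 centred group means. The closest to ASNS were ARRDC4 at 0.105, CTH at 0.140 and SESN2 at 0.144. For GOT1 they were SEMA4C at 0.0286, PXDC1 at 0.0291 and SH3RF1 at 0.0312, and for GLUL they were TM7SF2 at 0.0125, TAB3 at 0.0271 and NIPSNAP3A at 0.0278. CTH encodes the last enzyme of cysteine synthesis by transsulfuration, SESN2 an inhibitor of mTORC1 signalling, and TM7SF2 a sterol reductase of cholesterol synthesis. The match to ASNS was looser than the others. With PD98059 in complete medium ARRDC4 was at -0.22, CTH at 0.07 and SESN2 at 0.25, beside -0.0078 for ASNS. TM7SF2 was chosen for its likeness to GLUL in these same group means, so near values on depletion follow from that choice. They were -0.48 with PD98059 and -0.45 with DMSO, beside -0.46 and -0.47 for GLUL.

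Related enzymes of the same pathways were counted in 4 lists with 41 genes, of which 35 had a row. Of the 35, 5 rose and 9 fell on depletion with PD98059, against 12% and 15.3% of all genes. With DMSO 10 rose and 11 fell, against 14.8% and 18.4%. The median change of the 35 was 0.011 with PD98059 and -0.011 with DMSO, against 0.0032 and 0.026 over all genes.

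Among 9 aminotransferases and related enzymes, 3 rose and 2 fell with PD98059, and 3 rose and 2 fell with DMSO. The shares of all genes were 12% and 15.3% with PD98059, and 14.8% and 18.4% with DMSO. PSAT1, the aminotransferase of serine synthesis, rose by 0.61 ± 0.022 with PD98059 (SE, adjusted p = 5.92e-12) and by 0.68 ± 0.022 with DMSO (SE, adjusted p = 8.11e-13). BCAT1, the cytosolic branched-chain aminotransferase, rose by 0.49 with PD98059 and by 0.59 with DMSO. GPT, the alanine aminotransferase with a row, was at 0.04 with PD98059 and 0.12 with DMSO (adjusted p = 0.0539), neither called. TAT, a liver aminotransferase that breaks down tyrosine, read 7.65, 7.69, 7.57 and 7.62 in PD-His, against 7.31, 7.23, 7.20 and 7.20 in PD-DMEM. With DMSO it read 8.22, 8.25, 8.01 and 8.11 in DMSO-His, against 7.37, 7.25, 7.33 and 7.31 in DMSO-DMEM. Depleted arrays were higher than complete medium in both treatments, and highest in DMSO-His. TAT rose by 0.40 with PD98059 and by 0.83 with DMSO, an interaction of -0.43 ± 0.066 (SE, adjusted p = 8e-04).

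Among 7 proline and ornithine genes, 5 fell with PD98059, and 1 rose and 4 fell with DMSO. Of all genes 15.3% fell with PD98059, and 14.8% rose and 18.4% fell with DMSO. P4HA1 and P4HA2, subunits of collagen prolyl hydroxylase, fell by 0.37 and 0.30 with PD98059 and by 0.41 and 0.33 with DMSO. OAT, which links ornithine to glutamate and proline, fell by 0.32 with PD98059 (adjusted p = 2.38e-06) and by 0.18 with DMSO (adjusted p = 0.000465). ARG2, a mitochondrial arginase that yields ornithine, read 9.38, 9.41, 9.23 and 9.43 in PD-His, against 9.64, 9.63, 9.57 and 9.62 in PD-DMEM. With DMSO it read 10.09, 10.06, 10.04 and 10.02 in DMSO-His, against 9.74, 9.69, 9.70 and 9.74 in DMSO-DMEM. Depleted arrays were all lower with PD98059 and all higher with DMSO. On depletion ARG2 fell by 0.25 ± 0.037 with PD98059 (SE, adjusted p = 4.9e-05) and rose by 0.33 ± 0.037 with DMSO (SE, adjusted p = 1.8e-06). The interaction was -0.59 ± 0.052 (SE, adjusted p = 4.64e-06). PYCR3 was at 0.04 with PD98059 and -0.03 with DMSO, neither called.

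Among 9 genes of asparagine and aspartate use, 2 rose with PD98059, and 4 rose and 2 fell with DMSO. Of all genes 12% rose and 15.3% fell with PD98059, and 14.8% rose and 18.4% fell with DMSO. ASNSD1, which carries an asparagine synthetase domain, rose by 0.36 with PD98059 and by 0.29 with DMSO, and ASS1, which joins aspartate to citrulline in the urea cycle, by 0.15 and 0.16. Among 10 glutamine and glutamate genes, 2 fell with PD98059, and 2 rose and 3 fell with DMSO, beside the same shares of all genes. The 2 that rose were GAD1, at 5.94 in DMSO-His and 5.86 in DMSO-DMEM, and GAD2, at 4.97 and 4.87. Both lay below the table median of 6.22. CAD, the first enzyme of pyrimidine synthesis and a glutamine user, fell by 0.27 with PD98059 and 0.32 with DMSO, and GLUD1, glutamate dehydrogenase, by 0.13 and 0.10. Calls of ASRGL1, GAD1 and GAD2 with DMSO, each at or under 0.11 in size, were lost without single arrays (adjusted p from 0.0502 to 0.162). The call of SLC25A13 with DMSO, at 0.10, was lost with arrays shifted to the same median (adjusted p = 0.0757).

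**Figure D4:**
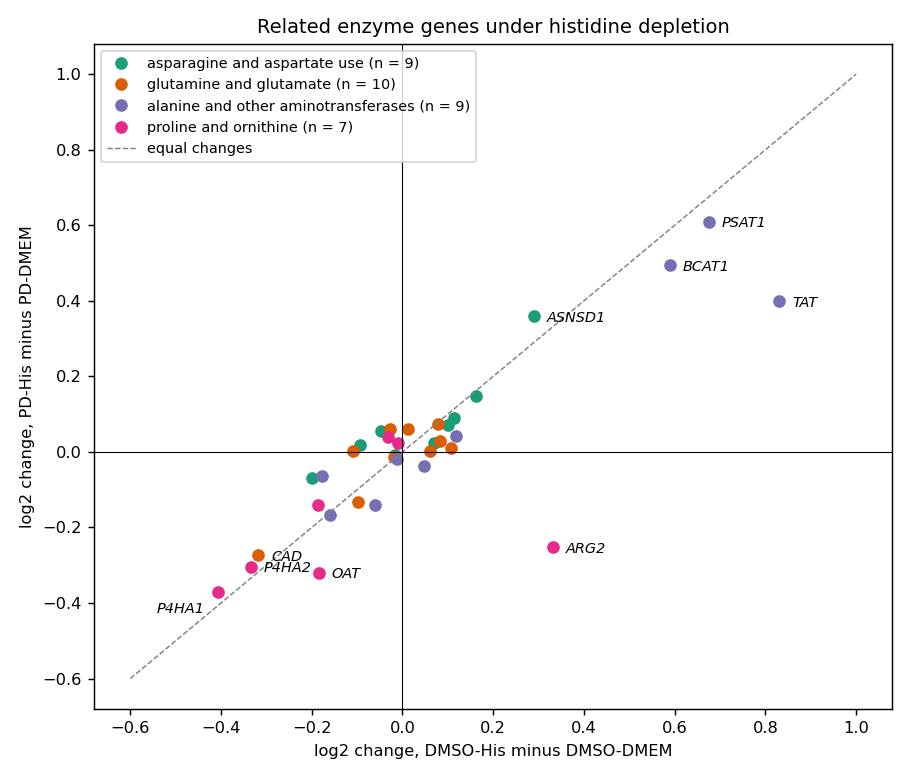
Log2 change on histidine depletion of 35 related enzyme genes, with DMSO (horizontal) and with PD98059 (vertical), coloured by list; the dashed line marks equal changes. PSAT1 and BCAT1 lie near the line, TAT lies below it at 0.40 with PD98059 and 0.83 with DMSO, and ARG2 lies at -0.25 with PD98059 and 0.33 with DMSO.

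Among the 10 glutamine and glutamate genes, PD98059 raised 1 and lowered 3 in each medium. Of all genes 13.5% were higher and 10.9% lower without histidine, and 7.59% higher and 6.74% lower in complete medium. CTPS1, CTP synthase, fell by 0.24 without histidine (adjusted p = 2.89e-06) and by 0.32 in complete medium (adjusted p = 2.28e-07). PPAT, the first committed enzyme of purine synthesis, fell by 0.13 and 0.18 (adjusted p = 0.0131 and 0.00262), and GFPT1, the entry enzyme of hexosamine synthesis, by 0.15 and 0.14 (adjusted p = 0.00126 and 0.00322). GLUD1 rose by 0.14 and 0.18. Other enzymes of the list that use the amide of glutamine were not called: CAD was at -0.0062 without histidine and -0.05 in complete medium, and GMPS, of purine synthesis, at 0.04 and -0.07. Among all 35 related enzymes 5 rose and 5 fell without histidine, against 24.4% of all genes called, and 5 rose and 4 fell in complete medium, against 14.3%. The interaction was called for 2 of the 35, against 5.74% of all genes. With arrays shifted to the same median, PPAT without histidine was at -0.14 (adjusted p = 0.0591). SLC25A12, 1 of the 5 that rose without histidine, was at 0.09 (adjusted p = 0.0352). Its call was lost in 6 of 16 fits without a single array (adjusted p from 0.0519 to 0.111). It was also lost with another quantile normalization (adjusted p = 0.109), the median shift (0.142), only the compared groups (0.11) and every row tested (0.101).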

How the data were processed

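Expression was measured on 16 biotin-labelled 1-colour Affymetrix arrays, 4 per group, grouped by sample title. The deposited values were log2 expression values made by the authors, and per the submitters' processing notes RMA, Partek 6.6 and build hg19 were used, with settings not given in the sources used here. Per the labels' protocols, 100 ng of RNA was amplified and 5.5 ug of cDNA labelled. RMA as usually run compresses small signals. Scanner files were not used here, so neither background nor scan order was examined, and precision rests on 4 arrays a group.

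Of 70459 rows, 23780 carried 1 gene symbol, 1543 several and 45136 were not in the platform annotation. Rows with 1 symbol gave 22464 genes. Symbols were checked against the RefSeq gene table through the Entrez identifier for 21496 rows. Group means were fitted on all 16 arrays with lmFit and eBayes (no trend) of limma 3.58.1, run in R 4.3.3, and p-values were adjusted by Benjamini-Hochberg over the 22464 genes, with genes called at an adjusted p under 0.05. The text names each error as SE, from the fit, or SD, between arrays. Simulated data stood for histidine depletion with DMSO, with 22464 genes, 200 of them changed, in 20 draws. There the fit recovered 62.8% of genes changed by 0.2 and 93.8% of those changed by 0.4, with 4.36% false calls. In the real comparison 33.3% of genes were called, so these rates may not carry over to it. Within-array differences of 2 genes were tested by exact permutation, in 4 tests. The planned GLUL and GLS2 pair was not run. Replicate numbers were not used to pair the arrays in the main fit or the permutation tests.

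Members and gene lists were chosen with earlier results of these data known. All 7 measured members were named, and related genes came from 4 pathway lists. Genes alike in profile were the closest 3 for each member with a span of at least 0.5. Listed related genes with no row under their symbol alone were not analysed here. RefSeq lists pseudogenes named after ASNS (5), GLUL (6), GOT2 (7) and PRODH (1), whose RNA may share probes, so these levels are less certain. Alternatives were a replicate block, only the compared groups, trend and robust variance, dim genes left out, array weights, a further quantile normalization, a shift of all arrays to 1 median, every row tested, rows averaged per symbol, an adjusted p under 0.01 and leaving out each array. Counts of related enzymes without replicate 3 of PD-His were added after seeing the data.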

Additional observations from a re-analysis of the deposited data

Results flagged for a closer look

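Of the 7 members 2, and of the 35 related enzymes 2, had a depletion response that differed between PD98059 and DMSO by the interaction term of the limma fit, against 5.74% of all genes. The count among the related enzymes lay near that share. ATF4 at -0.23 and DUSP6 at 0.42, used as checks, also passed, as did the fibroblast marker PDGFRB at -0.20. The interaction, PD98059 minus DMSO, was -0.301 for ASNS (adjusted p = 0.0146), -0.32 for GOT1 (adjusted p = 5.5e-05), -0.432 for TAT (adjusted p = 8e-04) and -0.586 for ARG2 (adjusted p = 4.64e-06). ARG2 was the one among them whose depletion response had opposite signs, at -0.25 with PD98059 and 0.33 with DMSO. A Dixon outlier test flagged no array for these genes and the other 5 members, in 36 groups checked. With 4 arrays a group it can miss a stray array, so it does not decide this. Replicate 3 of PD-His was lowest for ASNS (9.61 against 9.81 to 9.89), ARG2 (9.23 against 9.38 to 9.43) and TAT (7.57 against 7.62 to 7.69). For GOT1 it lay inside its group, at 11.54. Without that array the interaction was -0.24 for ASNS, -0.32 for GOT1, -0.41 for TAT and -0.54 for ARG2, all still called.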

How the results depend on the processing

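The calls of ASNS, GOT1, GLUL and ALDH18A1 in the depletion comparisons, and of GOT1 and GLUL for PD98059, kept direction and side under every alternative run. The 2 members called for the interaction became 1 with arrays shifted to the same median, with every row tested and with an adjusted p under 0.01, where GOT1 stayed and ASNS did not. Related enzymes called for the interaction were 2, and 6 without replicate 3 of PD-His, which added SLC25A12, GMPS, AGXT2 and AADAT, while calls over all 22464 genes went up to 3145 from 1289. Signs turned only for changes that were never called. PRODH was at -0.022 for PD-His against PD-DMEM and -0.023 for PD-His against DMSO-His with array weights, and in the last at -0.011 with another quantile normalization and -0.0031 with a median shift. ALDH18A1 in PD-DMEM against DMSO-DMEM was at -0.00849 with a median shift and -0.021 with array weights, and the PYCR1 interaction at 0.0024 with another quantile normalization. Leaving out single arrays gave -0.031 to 0.012 for ASNS and -0.026 to 0.015 for ALDH18A1 with PD98059 in complete medium. It gave -0.0015 to 0.027 for GLUL, -0.00052 to 0.031 for GOT2 and -0.058 to 0.0070 for PRODH in the interaction. PRODH lay at -0.037 to 0.028 for PD-His against DMSO-His and -0.018 to 0.047 for PD-His against PD-DMEM. The cause of these shifts was not tested.

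With the replicate number as a block, 6, 4, 2, 3 and 2 members were called in the order of the comparisons in the text, against 6, 4, 2, 4 and 2 without it. GOT2 for PD-His against DMSO-His was lost (0.07, adjusted p = 0.0562). Deviations of same-numbered arrays correlated between -0.323 and 0.514, above 0.1 in 9 of 24 pairs, and 6 of 16 arrays correlated best with their own number. Over all genes the interaction gave 1289 calls, 782 with a median shift and 4615 with array weights. PD98059 in complete medium gave 3218 calls, and 5920 with array weights.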

Other observations

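Some related liver enzymes moved with PD98059 in both media. AGXT, the liver aminotransferase that removes glyoxylate, rose by 0.18 without histidine (adjusted p = 0.000306) and by 0.26 in complete medium (adjusted p = 1.96e-05). ASS1 rose by 0.17 (adjusted p = 0.000492) and by 0.19 (adjusted p = 0.000521). PEPD, a dipeptidase that frees proline, rose by 0.17 (adjusted p = 0.000502) and by 0.12 (adjusted p = 0.0109). After a shift of all arrays to 1 median, PEPD in complete medium was at 0.12 (adjusted p = 0.0527). OAT was at -0.0044 without histidine (adjusted p = 0.957) and rose by 0.13 in complete medium (adjusted p = 0.0160), and its call in complete medium was lost without replicate 2 of DMSO-DMEM or replicate 1 of PD-DMEM (adjusted p = 0.0534 and 0.0537) and after the median shift (adjusted p = 0.119).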
